A study of Mus musculus with 77 samples.

Results

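The broadest stretches of H3K27me3 in resting mouse B cells were examined in deposited peak lists of CUT&RUN, which uses an antibody and a tethered nuclease to release the DNA around marked nucleosomes. Bases of the 19 autosomes under H3K27me3 peaks in at least 3 of the 4 lists of naive (0 h) WT mb1-cre cells were joined where they touched, and regions of 50 kb or more were kept. This gave 79 domains with a coding start listed among RefSeq promoters and 40 without a listed one. Some coding genes, such as Lbx1, have no listed promoter. Together the domains made up 2.87% of all 4150 regions and 11.99% of their length (8.41 of 70.1 Mb). The domains had a median length of 61.8 kb and reached 236.8 kb. The other 3933 regions of 5 kb or more had a median of 12.8 kb.

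All cells were CD23+ B cells, which are mostly follicular, from the spleen of female mice. In the mb1-cre system Cre acts from the B-lineage gene mb1 in the animal, and the groups were Xist fl/fl mice with mb1-cre and WT mice that also carried mb1-cre. In the TAT-Cre system the groups were Xist fl/fl and WT mice, whose B cells were incubated for 45 min with 80 µg of this cell-permeant Cre before stimulation. Each genotype was profiled both stimulated for 24 h, with CpG (1 µM), which activates Toll-like receptor 9, and unstimulated at 0 h. By the labels the enzyme was given only ahead of the 24 h culture. The 0 h cells of the TAT-Cre system were therefore taken to have an intact floxed gene, and enzyme, culture and CpG cannot be told apart there. Xist, the RNA that coats and silences one X chromosome, is X-linked, while all domains are autosomal. Peak lists of histone marks carry no transcript level, so loss of Xist was not checked here.

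The 77 libraries comprised 29 for H3K27me3 and 24 each for H2AK119Ub and H3K27ac, in 24 groups. Groups held 3 libraries. The exceptions were the H3K27me3 groups of the mb1-cre system, with 4 Xist fl/fl and 4 WT libraries at 24 h and 5 Xist fl/fl and 4 WT libraries at 0 h. Autosomal peaks covered 28.8 to 203.7 Mb per library for H3K27me3 and 39.8 to 198.7 Mb for H2AK119Ub. The sources used here give no read depth, so a longer list and a deeper library cannot be told apart, nor can fewer marked cells and less mark per cell. Replicates are labelled biological, but whether each had its own animal is not said, and p-values therefore measure the spread between these samples. Replicate 5 of mb1-cre Xist fl/fl at 0 h stood apart, with 203.7 Mb against 40.5 to 114.7 Mb in the other 4, and its treatment entry reads stimulated while its title reads 0 h. It was grouped by its title. H3K27ac peaks marked 10 of 10 B cell genes in all 24 libraries, against at most 2 of 12 T cell, 1 of 8 myeloid, 1 of 6 NK cell and 0 of 5 erythroid genes.

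H3K27me3 is written by Polycomb repressive complex 2 and H2AK119Ub, a ubiquitin on histone H2A, by Polycomb repressive complex 1. Both marks cover silent genes of other cell fates, classically CpG-rich promoters of developmental regulators such as the Hox clusters. H3K27ac marks active promoters and enhancers and occupies the same lysine as H3K27me3, so a nucleosome tail cannot carry both.

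The promoter bases of genes in the longest domains show the range of sequence under one broad mark. The 250 bases before the annotated start are printed 5′ to 3′ on the strand of the gene, from RefSeq on GRCm38.p6 (mm10), with each CG in capitals. The first 6 belong to developmental genes of the longest domains that had an entry. Chil3 and Rasgrf1 were added after their values were seen, as genes of very long domains without a developmental regulator.
Hoxc4: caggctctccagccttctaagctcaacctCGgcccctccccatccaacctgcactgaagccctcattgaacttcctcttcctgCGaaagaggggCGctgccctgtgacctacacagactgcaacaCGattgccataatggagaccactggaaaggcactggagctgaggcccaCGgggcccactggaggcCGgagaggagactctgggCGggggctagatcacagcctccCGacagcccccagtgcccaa
Hoxd9: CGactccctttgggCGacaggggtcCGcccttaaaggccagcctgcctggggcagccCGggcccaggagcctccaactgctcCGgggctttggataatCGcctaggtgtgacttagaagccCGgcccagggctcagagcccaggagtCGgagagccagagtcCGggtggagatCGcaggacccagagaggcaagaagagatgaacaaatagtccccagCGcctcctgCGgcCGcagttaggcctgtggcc
Hoxa13: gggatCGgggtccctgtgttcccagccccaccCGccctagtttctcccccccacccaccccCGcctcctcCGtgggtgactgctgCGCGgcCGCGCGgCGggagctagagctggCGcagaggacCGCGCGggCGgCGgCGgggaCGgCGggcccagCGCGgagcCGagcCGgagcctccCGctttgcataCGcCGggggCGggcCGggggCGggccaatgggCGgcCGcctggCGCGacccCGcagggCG
Nkx2-3: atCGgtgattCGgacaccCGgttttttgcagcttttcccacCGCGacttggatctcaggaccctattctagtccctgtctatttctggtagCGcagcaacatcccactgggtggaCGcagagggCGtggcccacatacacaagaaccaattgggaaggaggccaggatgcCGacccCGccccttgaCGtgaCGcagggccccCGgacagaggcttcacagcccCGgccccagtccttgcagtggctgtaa
Zic5: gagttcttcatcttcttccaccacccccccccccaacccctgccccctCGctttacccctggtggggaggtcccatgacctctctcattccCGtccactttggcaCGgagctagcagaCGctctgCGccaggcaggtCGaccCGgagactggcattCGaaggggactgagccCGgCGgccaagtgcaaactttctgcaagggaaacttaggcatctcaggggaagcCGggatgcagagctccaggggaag
Lhx2: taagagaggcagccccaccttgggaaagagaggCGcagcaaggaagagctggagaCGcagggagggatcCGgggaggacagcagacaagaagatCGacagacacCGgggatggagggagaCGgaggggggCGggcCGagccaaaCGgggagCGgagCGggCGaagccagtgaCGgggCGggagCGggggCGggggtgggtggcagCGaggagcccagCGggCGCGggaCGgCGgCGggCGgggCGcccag
Chil3: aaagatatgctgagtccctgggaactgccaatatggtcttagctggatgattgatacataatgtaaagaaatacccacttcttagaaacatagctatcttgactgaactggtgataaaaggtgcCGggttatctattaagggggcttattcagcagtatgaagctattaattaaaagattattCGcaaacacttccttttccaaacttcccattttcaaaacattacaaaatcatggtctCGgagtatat
Rasgrf1: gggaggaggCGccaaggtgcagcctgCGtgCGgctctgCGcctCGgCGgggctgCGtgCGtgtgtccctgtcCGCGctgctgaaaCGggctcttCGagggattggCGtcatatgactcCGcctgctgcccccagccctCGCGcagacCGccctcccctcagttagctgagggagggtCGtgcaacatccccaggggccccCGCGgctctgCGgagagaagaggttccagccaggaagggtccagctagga
Hoxc4 (chr15:103034145-103034394, + strand), Hoxd9 (chr2:74697513-74697762, +) and Hoxa13 (chr6:52260881-52261130, −) lie in 3 of the 4 Hox clusters, which lay out the body axis. Nkx2-3 (chr19:43612075-43612324, +) encodes a homeobox factor of spleen and gut, Zic5 (chr14:122465659-122465908, −) a zinc-finger factor of the dorsal neural tube and Lhx2 (chr2:38339031-38339280, +) a LIM-homeobox factor of forebrain and eye. Chil3 (chr3:106167565-106167814, −) encodes a chitinase-like protein made by macrophages, and Rasgrf1 (chr9:89909525-89909774, +) an exchange factor for Ras in neurons. The 250 bases held 35 CG at Hoxa13, 25 at Lhx2, 21 at Rasgrf1, 14 at Nkx2-3, 13 at Hoxd9, 11 at Zic5, 8 at Hoxc4 and 3 at Chil3. Over the 158 promoters of 135 coding genes that start in a domain, the 300 bases of the promoter entry around the start held a median of 16 CG, against 18 in shorter regions, 13 elsewhere and 14 over all 20084 promoters. A count of 15 CG or more was found in 59.5% of promoters in domains, 59.9% in shorter regions and 48.1% of all, so the domains were no richer in such promoters than shorter regions.

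Many domains lay at developmental regulators. Of the 161 coding genes with at least 50% of their length in a domain, 59 were on lists of developmental regulators, or 36.6%, against 1.51% of the 20661 autosomal coding genes. By domain, 26 (21.8%) held such a gene, against 4.02% of the shorter regions, without adjustment for the greater length of the domains. The lists were drawn up with earlier results of these data known, and H3K27me3 itself chose the domains, so these shares describe them and were not tested. Of the Hox genes, 34 of 41 lay at least 50% inside a domain and Hoxa3, Hoxb3 and Hoxb4 in part. Of the other homeobox genes 12 of 104 lay in domains and 73 in shorter regions. The 12 included Nkx2-5 (heart), Pdx1 (pancreas), Cdx2 (intestine), Pitx3 (lens and midbrain) and Lbx1 (limb muscle). Zinc-finger, bHLH and related factors had 10 of 57, among them Zic1, Zic2, Zic4 and Zic5, Osr2, Tfap2a and Neurod2. Ligands had 2 of 53, the neighbours Wnt6 and Wnt10a, and forkhead genes 1 of 23, Foxi3, with 19 more in shorter regions. Sox genes (0 of 13), T-box genes (0 of 14) and the Pax genes with Wt1 (0 of 8) had none at that level, although Pax2, Pax7 and Sox6 lay in part in a domain. None of 33 B cell, 20 T cell, 18 myeloid, 10 NK cell, 10 erythroid or 15 housekeeping genes lay in a domain, where the share over all coding genes was 0.779%.

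Gene content varied among the longest domains. Of the 12 longest domains, 5 held homeobox genes. The Hoxc domain (mm10 chr15:102894929-103131692, 236.8 kb) spans Hoxc4 to Hoxc13 and the long non-coding RNA Hotair. The Hoxd domain (chr2:74625015-74770535, 145.5 kb) runs from Evx2 to Hoxd1, and the Hoxa domain (chr6:52205460-52327468, 122.0 kb) from Hoxa6 to Evx1. Lbx1 (chr19:45210549-45308883, 98.3 kb) and Nkx2-3 (chr19:43531453-43626401, 94.9 kb) had a domain each.

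The other 7 of the 12 held no gene of those lists. The second longest (chr3:106093434-106311762, 218.3 kb) holds the chitinase family genes Chia1, Chil3 and Chil4. A domain of 142.0 kb (chr15:6938931-7080970) has no coding gene and 3 long non-coding RNAs, between Osmr and Lifr, which encode cytokine receptor chains. Rasgrf1, imprinted in mouse brain, lies in 122.8 kb (chr9:89847374-89970136). A domain of 118.0 kb (chr6:69938244-70056258) holds 5 variable segments of the immunoglobulin kappa light chain, Igkv12-38, Igkv5-37, Igkv18-36, Igkv1-35 and Igkv8-34. Of the remaining 3, the longest reaches the start of Rhou, a small GTPase, only at its edge (chr8:123537260-123654348, 117.1 kb). Most genes listed in that domain are ribosomal RNA genes. Sharing of reads among them in alignment was not tested. The others were in a stretch without coding genes (chr7:83373636-83480430, 106.8 kb) and at Sycp1, a protein of the meiotic synaptonemal complex (chr3:102839042-102935218, 96.2 kb). In all, 16 domains (13.4%) touched no coding gene, against 28.7% of shorter regions, and 79 (66.4%) held a listed coding start, against 43.1%. These shares are per region and were not adjusted for length, and a longer region touches more genes by its size alone. Listed starts belonged to 135 coding genes in the 8.41 Mb of domains. In the shorter regions, out of 70.1 Mb for all regions, they belonged to 1847.

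The threshold of 50 kb cut through a continuum. Just inside it were domains at Ccdc144b (50.1 kb), Bcar1 (50.2 kb) and a stretch of chromosome 5 without a coding gene (50.9 kb), and just outside were another such stretch of chromosome 5 (49.9 kb), Lrrc36 (49.9 kb) and Ttll6 (49.5 kb). Of the domains, 56 were under 60 kb and 9 were 100 kb or longer. The number also rested on each of the 4 lists, since the bases shared by the other 3 gave 65, 83, 74 and 57 domains without replicates 1 to 4 in turn.

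In the mb1-cre system the domains stayed almost wholly under H3K27me3 peaks at 24 h. Peaks covered 95.7, 96.5, 97.5 and 99.7% of domain bases in the 4 Xist fl/fl libraries at 24 h, against 81.5, 91.0, 92.1, 98.9 and 99.99% in the 5 at 0 h. In WT cells they covered 98.5, 95.8, 92.3 and 99.4% at 24 h, against 96.8, 91.8, 95.9 and 99.7% at 0 h, the lists that chose the domains. The groups overlapped in both genotypes. Each domain was crossed by 1.00 to 1.61 separate stretches on average in every mb1-cre library. Coverage and stretches had little room to move here. The rule chose the domains as unbroken runs of bases, each under peaks in at least 3 of the WT lists at 0 h. Which 3 could change along a domain, so a single list could be broken within it.

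**Figure D1:**
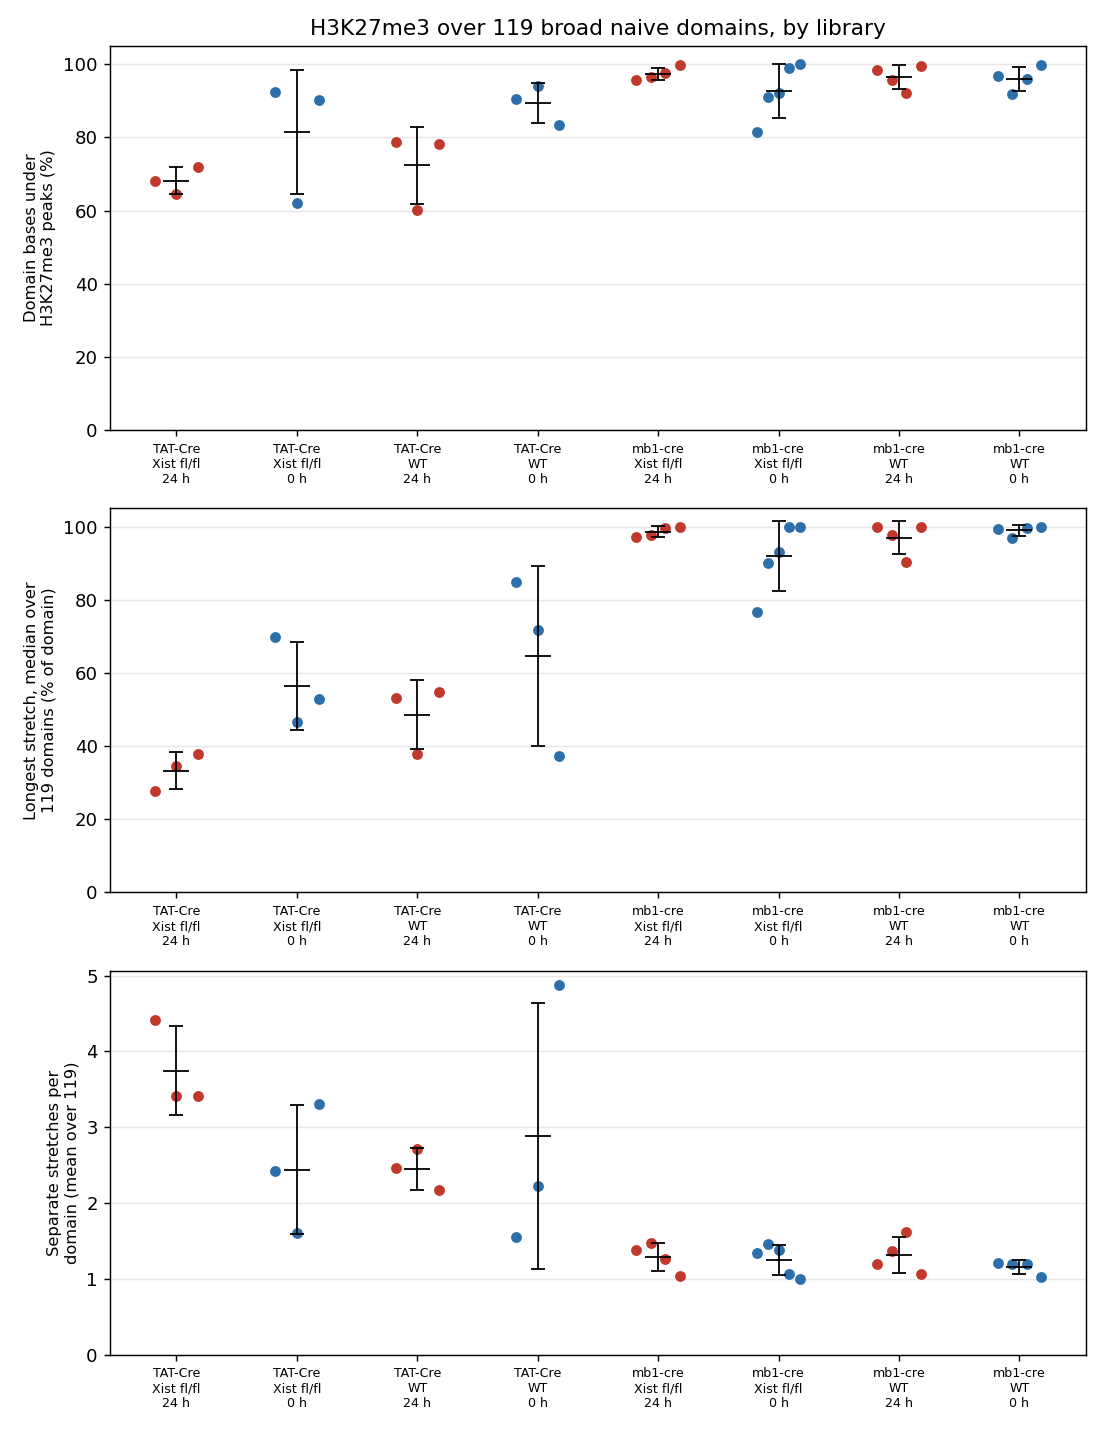
H3K27me3 over all domains in each library: percent of domain bases under peaks (top), longest uninterrupted stretch as a percent of the domain, median over domains (middle), and mean number of stretches per domain (bottom); points are libraries, red at 24 h and blue at 0 h, and black marks give mean and SD. The TAT-Cre libraries at 24 h lie at 60.2 to 78.8% covered, below all mb1-cre libraries, and Xist fl/fl replicate 2 at 0 h lies among them at 62.0%.

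In the TAT-Cre system the domains were covered less at 24 h. In Xist fl/fl cells 68.1, 64.5 and 71.9% of domain bases were covered at 24 h, against 92.5, 62.0 and 90.2% at 0 h. Replicate 2 at 0 h, whose whole list covered 28.8 Mb against 103.5 and 108.5 Mb in the other 2, fell among the 24 h libraries. In WT cells 78.8, 60.2 and 78.1% were covered at 24 h, against 90.6, 94.1 and 83.3% at 0 h, and the groups did not overlap. The whole lists were shorter as well, at 51.4 to 59.8 Mb and 34.6 to 58.4 Mb at 24 h in Xist fl/fl and WT cells. At 0 h WT lists covered 65.8 to 111.9 Mb. In the mb1-cre system the lists moved the other way, with 105.6 to 196.2 Mb at 24 h against 57.7 to 118.7 Mb at 0 h in WT cells. With all lists trimmed to the same covered length, mean coverage at 24 h minus 0 h was -13.8 points in Xist fl/fl and -7.69 points in WT cells of the TAT-Cre system, and -3.05 points in Xist fl/fl and -7.56 points in WT cells of the mb1-cre system, where the untrimmed difference was positive.

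The domains of TAT-Cre Xist fl/fl cells were also in more and shorter pieces at 24 h. The lists of these cells were shorter at 24 h than all but replicate 2 at 0 h. The part of list length in the pieces was not tested. The longest uninterrupted stretch took up a median of 27.7, 34.4 and 37.7% of a domain in TAT-Cre Xist fl/fl cells at 24 h, against 69.7, 46.7 and 52.9% at 0 h, without overlap. In TAT-Cre WT cells it took up 53.1, 37.9 and 54.9% at 24 h, against 85.0, 71.6 and 37.3% at 0 h, with replicate 3 at 0 h among the 24 h values. In mb1-cre cells the range was 76.6 to 100% over all 17 libraries. Stretches per domain averaged 4.42, 3.41 and 3.41 in TAT-Cre Xist fl/fl cells at 24 h, against 2.42, 1.61 and 3.30 at 0 h. In TAT-Cre WT cells they averaged 2.46, 2.71 and 2.17 at 24 h, against 1.56, 2.23 and 4.87 at 0 h, where the groups overlapped. The Hoxc domain, a single stretch in 16 of the 17 mb1-cre libraries, was cut into 7, 6 and 4 stretches in TAT-Cre Xist fl/fl cells at 24 h, against 2, 2 and 3 at 0 h. In TAT-Cre WT cells it lay in 2, 5 and 1 stretches at 24 h, against 1, 4 and 3 at 0 h.

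**Figure D2:**
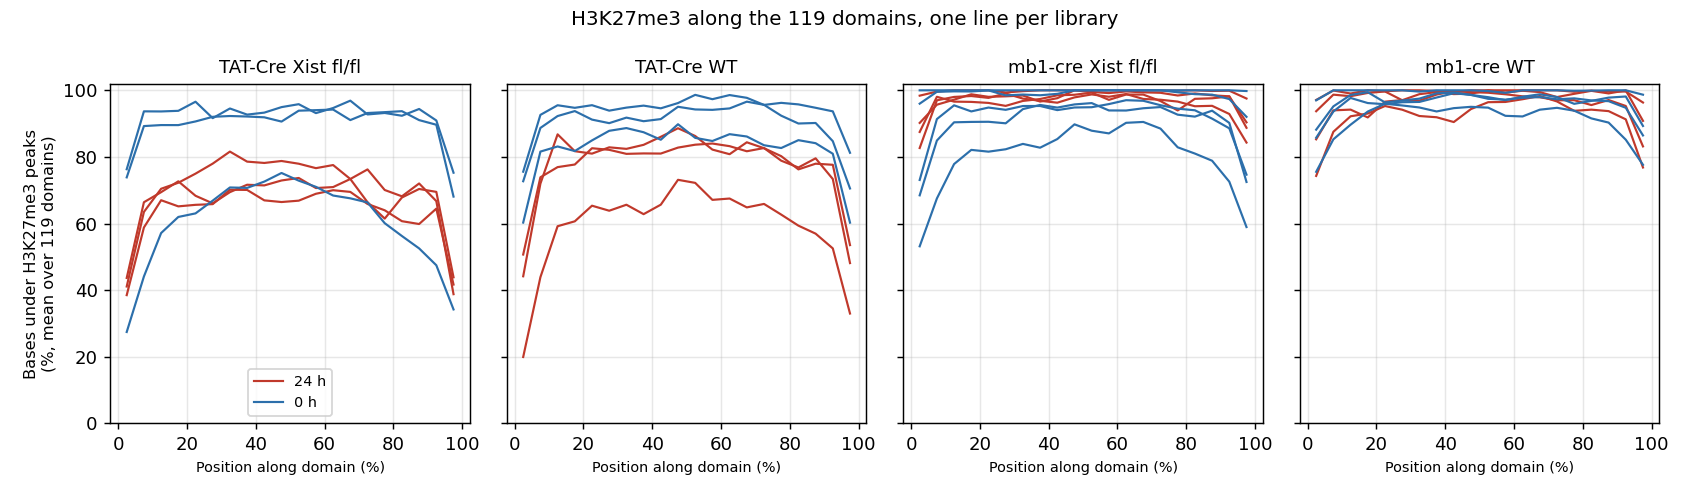
Percent of bases under H3K27me3 peaks in 20 equal bins along the domains (x axis, percent of domain length; y axis, mean over all domains), 1 line per library, red at 24 h and blue at 0 h, 1 panel per system and genotype. In the TAT-Cre panels at 24 h the outermost bins hold 20.0 to 53.5% and the 2 middle bins 66.5 to 88.6%, while the outermost bins of the mb1-cre libraries hold 53.2 to 99.99%.

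Coverage was lower towards the ends of the domains in TAT-Cre cells at 24 h. The outermost 5% on either side was 20.0 to 53.5% covered in those 6 libraries and the 2 middle bins 66.5 to 88.6%. Domains end where the bases shared by the WT mb1-cre lists stop, so the rule alone can lower coverage there. The median over all 29 H3K27me3 libraries was 82.97% at the ends and 94.58% in the middle. For H2AK119Ub these medians were 55.56 and 70.13%. Middle bins at 0 h were not compared, so narrowing at 24 h was not tested. At 0 h the outermost bins were 27.5 to 76.3% covered in TAT-Cre Xist fl/fl and 60.3 to 81.2% in TAT-Cre WT cells, while the outermost bins of all mb1-cre libraries were 53.2 to 99.99% covered. Beyond the ends, the 25 kb on either side was 9.25 to 16.4% covered in TAT-Cre cells at 24 h, against 9.65 to 32.7% at 0 h. In mb1-cre cells these flanks were 29.2 to 52.1% covered at 24 h, against 14.6 to 59.1% at 0 h. Only 3 to 34 own stretches of 50 kb or more existed anywhere on the autosomes of a TAT-Cre list at 24 h, against 9 to 101 at 0 h. Such stretches numbered 130 to 458 in the mb1-cre lists at 24 h.

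H2AK119Ub covered more of the domain bases that were under H3K27me3 in all TAT-Cre lists at 24 h than of those under none, at both times. The bases shared by all 6 lists made up 3.48 Mb of the domains (41.4%), and the uncovered ones, under none, 0.549 Mb (6.53%). In TAT-Cre Xist fl/fl cells at 24 h, H2AK119Ub covered 88.7% ± 6.2 of the shared and 28.0% ± 10.7 of the uncovered bases, and in TAT-Cre WT cells 86.7% ± 3.1 and 30.1% ± 4.7 (SD, n = 3 each). In the mb1-cre system at 24 h it covered 85.2% ± 2.5 and 19.9% ± 2.4 in Xist fl/fl cells, and in WT cells 92.9% ± 1.6 and 38.97% ± 2.5 (SD, n = 3 each), in the same order. At 0 h it covered 80.6% ± 9.3 of the shared and 39.1% ± 14.1 of the uncovered bases in TAT-Cre Xist fl/fl cells, 84.2% ± 7.0 and 43.7% ± 13.7 in TAT-Cre WT cells, 81.7% ± 8.7 and 43.4% ± 8.7 in Xist fl/fl mb1-cre cells and 81.4% ± 9.5 and 45.0% ± 14.6 in WT mb1-cre cells (SD, n = 3 each). H3K27me3 itself covered 43.1% ± 28.2 of the uncovered bases in Xist fl/fl and 60.6% ± 12.7 in WT TAT-Cre cells at 0 h (SD, n = 3 each), against 97.3% ± 4.1 and 98.7% ± 1.0 of the shared ones, so they were covered less before the culture too. In mb1-cre cells H3K27me3 peaks at 24 h covered 81.5% ± 11.3 of the uncovered bases in Xist fl/fl and 77.9% ± 18.1 in WT libraries (SD, n = 4 each).

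Region by region, limma was fitted to the percent of each of 4052 regions of 5 kb or more under H3K27me3 peaks, without the 4 libraries that chose the domains, with Benjamini-Hochberg adjustment over all regions. For TAT-Cre and CpG, averaged over both genotypes, 16 domains (13.4%) were lower at an adjusted p under 0.05 and 0 were higher, where 3.83% of all regions were lower and 0% higher. The median difference was -13.02 percentage points over the domains and -13.42 over all regions, and 116 of the domains were below 0. The count rested on single libraries. It was 74 without Xist fl/fl 0 h replicate 2, and 2 without Xist fl/fl 0 h replicate 1 or WT 0 h replicate 2. It was 3 without Xist fl/fl 0 h replicate 3, WT 0 h replicate 1 or WT 24 h replicate 2, 8 without Xist fl/fl 24 h replicate 2, 26 without WT 24 h replicate 1 and 27 without WT 24 h replicate 3. With the log2 share of peak signal in place of coverage 2 domains were lower, and 9 of the 16 kept the negative sign.

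The 5 domains with the lowest adjusted p were at Dmrt1 and Dmrt3, Ccdc65, Nkx2-5, Foxi3 and 2 kappa segments. Dmrt1 and Dmrt3 encode sex-determination and neuronal factors (chr19:25561139-25626725). H3K27me3 peaks covered 54.0, 80.3 and 76.7% of that domain in TAT-Cre Xist fl/fl cells at 24 h, against 95.1, 88.2 and 98.7% at 0 h, and 85.3, 83.4 and 68.3% in TAT-Cre WT cells at 24 h, against 99.8, 100 and 85.9% at 0 h. Neither genotype overlapped between times, and the fitted difference was -20.0 ± 4.2 points (SE, limma adjusted p = 0.0103). At Nkx2-5, a heart regulator (chr17:26805644-26869869), the values were 73.8, 79.0 and 76.6% in Xist fl/fl cells at 24 h against 96.2, 99.3 and 86.2% at 0 h, and 71.9, 59.5 and 79.3% in WT cells at 24 h against 92.3, 99.6 and 98.4% at 0 h. The groups did not overlap there either (-22.0 ± 5.1 points, limma adjusted p = 0.0196). On the scale of log2 signal share both domains moved to just above 0.

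The kappa domain with Igkv8-27 and Igkv8-26 (chr6:70145472-70206901) was the most variable of the 5. It was 49.4, 26.2 and 37.4% covered in TAT-Cre Xist fl/fl cells at 24 h, against 99.5, 17.6 and 81.0% at 0 h, and 35.1, 9.99 and 44.5% in TAT-Cre WT cells at 24 h, against 100, 98.9 and 82.7% at 0 h (-46.2 ± 11.1 points, limma adjusted p = 0.0213). The WT groups were apart and the Xist fl/fl groups overlapped through replicate 2. The domain of Ccdc65, part of the dynein regulatory complex of cilia, with Rnd1 and Fkbp11 (chr15:98663936-98731282) differed by -27.4 ± 5.9 points (limma adjusted p = 0.0125). The domain of Tex37, a testis gene, and Foxi3, a forkhead factor of ear and teeth (chr6:70909311-70967682), differed by -29.0 ± 6.8 points (limma adjusted p = 0.0209).

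The 3 longest Hox domains stayed at 80.0 to 100% under H3K27me3 in TAT-Cre cells. The Hoxa domain was 91.5, 94.7 and 99.3% covered in Xist fl/fl cells at 24 h, against 98.6, 100 and 98.4% at 0 h, and 99.2, 95.9 and 100% in WT cells at 24 h, against 99.9, 99.2 and 98.5% at 0 h. The Hoxc domain was 95.1, 91.5 and 92.9% covered in Xist fl/fl cells at 24 h, against 99.7, 95.3 and 98.3% at 0 h, and 97.4, 88.6 and 100% in WT cells at 24 h, against 100, 97.2 and 99.0% at 0 h. The Hoxd domain had 80.0, 88.1 and 87.2% in Xist fl/fl cells at 24 h, against 92.3, 87.2 and 93.7% at 0 h, and 87.6, 87.4 and 87.3% in WT cells at 24 h, against 100, 92.4 and 89.8% at 0 h. None of the 3 was called. Zic1 and Zic4, which pattern the cerebellum, had 93.7, 98.4 and 86.9% in Xist fl/fl cells at 24 h, against 98.9, 97.1 and 92.9% at 0 h.

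For CpG in mb1-cre Xist fl/fl cells limma called 0 domains, where 0% of all regions were higher and 0.0247% lower. At an unadjusted p under 0.05 there were 0 domains among 172 regions. The median was +3.68 points over the domains and +14.28 over all regions, and 101 domains were above 0. Moving replicate 5 of the 0 h group to 24 h, or leaving it out, also gave 0 called domains, with medians of +5.40 and +5.04 points. Coverage of the domains at 0 h already stood at 81.5 to 99.99%. The lowest of the WT domains at 24 h, as a description, were the kappa domain with Igkv15-103 (92.9, 68.3, 59.0 and 100%), a stretch between Necab1 and Tmem64 (84.6, 70.9, 65.2 and 100%), the stretch between Rgs1 and Rgs21 (96.2, 73.5, 77.4 and 93.0%), Trnp1 and the kappa domain of 118.0 kb (94.8, 94.2, 70.7 and 92.8%). The highest were Srcin1, Cpeb1, Gm8909, Gm960 and Tfap2a, at 100% in all 4. In the most stretches at 24 h in WT cells were the Chil3 domain, with 3.25 on average, the kappa domain of 118.0 kb, with 2.75, a stretch of chromosome 13 without a coding gene, the keratin genes Krt24 and Krt25, and Lhx2.

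The change at 24 h in TAT-Cre Xist fl/fl cells minus that in mb1-cre Xist fl/fl cells was a contrast added after seeing the data, without WT cells. It called 0 domains by limma, where 0% of regions were higher and 0.074% lower. At an unadjusted p under 0.05, 28 domains and 487 regions passed. All domains were below 0, with a median of -16.61 points against -21.88 over all regions. Without TAT-Cre Xist fl/fl 0 h replicate 2 it called 8 domains. The systems differ in Cre and handling as well as in list length, which cannot be told apart.

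H2AK119Ub covered 46.5 to 82.4% of domain bases per library. In mb1-cre Xist fl/fl cells it covered 58.2, 63.6 and 56.4% at 24 h, against 66.6, 74.99 and 55.1% at 0 h, and in mb1-cre WT cells 74.96, 71.8 and 74.4% at 24 h, against 55.6, 82.4 and 58.5% at 0 h. In TAT-Cre Xist fl/fl cells it covered 74.0, 56.0 and 72.5% at 24 h, against 70.1, 46.5 and 71.6% at 0 h, and in TAT-Cre WT cells 64.8, 59.3 and 69.4% at 24 h, against 56.7, 67.8 and 78.8% at 0 h. The times overlapped in all 4. Beneath this, single domains moved far in both directions.

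For CpG in mb1-cre cells, averaged over both genotypes, limma called 26 domains higher and 21 lower for H2AK119Ub, where 21.4% of 3943 regions were higher and 8.65% lower. These are 21.8% and 17.6% of the domains, the share of higher domains thus near the background and that of lower ones above it. The medians were +4.28 points over the domains and +6.80 over all regions. For TAT-Cre and CpG, 16 domains were higher and 12 lower (13.4% and 10.1%), where 14% and 6.09% of all regions were. The split depended on the scale. It was 22 higher and 35 lower in mb1-cre cells and 19 and 30 in TAT-Cre cells with lists of an equal number of peaks, 24 and 36, and 22 and 27, with lists of equal covered length, and 20 and 58, and 4 and 60, for the log2 share of peak signal. Of the 21 lower domains in mb1-cre cells, 21 remained called and lower under each of these 3. Of the 26 higher ones, 21, 21 and 18 did, and 0 were called in the other direction.

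The 2 systems share no library, but both comparisons came from the same fit. The variance estimated for a region was common to both, so the 2 sets of calls are not independent. All 16 higher domains of the TAT-Cre system were among the 26 of the mb1-cre system (61.5% of those), and all 12 lower ones among the 21 (57.1%). No domain was called in opposite directions, and 108 of all domains had the same sign. The same figures were not taken over all 3943 regions, so the overlap describes the domains and is not shown to be particular to them. The shared higher domains include that of Zic1 and Zic4, where a difference was bound to appear, as given below.

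**Figure D3:**
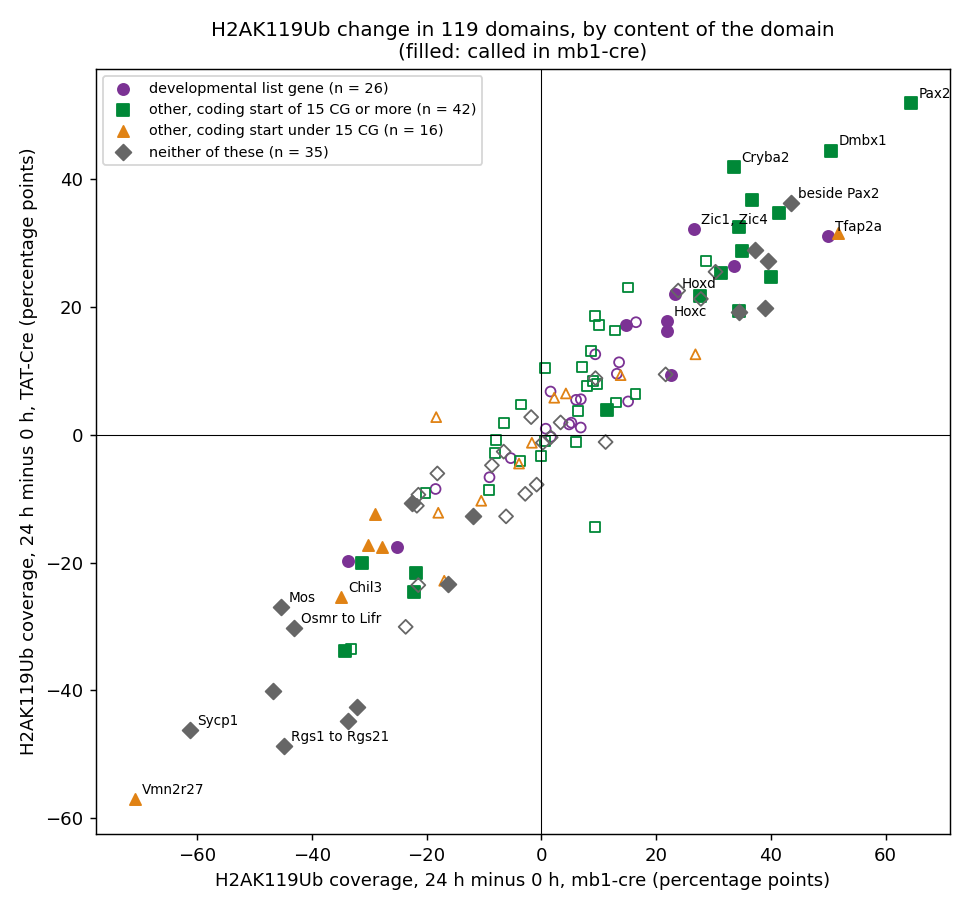
Difference in H2AK119Ub coverage at 24 h minus 0 h, in percentage points, in mb1-cre cells (x axis) and TAT-Cre cells (y axis), both averaged over genotypes, for all domains; symbols give the gene content and filled symbols were called in mb1-cre cells. Points run along the diagonal, with Pax2 at the upper right (+64.5 and +51.9) and Vmn2r27 at the lower left (-70.9 and -57.1).

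Pax2, Tfap2a and the pair Zic1 and Zic4 were among the domains with higher H2AK119Ub. Pax2, a regulator of kidney and eye, reaches into a domain of 54.6 kb (chr19:44715221-44769771). H2AK119Ub covered 72.4, 76.7 and 76.7% of it in Xist fl/fl mb1-cre cells at 24 h, against 24.8, 36.3 and 0% at 0 h, and 90.3, 85.8 and 92.3% in WT mb1-cre cells at 24 h, against 0, 46.1 and 0% at 0 h. In TAT-Cre Xist fl/fl cells it covered 84.2, 56.7 and 88.8% at 24 h, against 16.1, 13.3 and 33.1% at 0 h, and in TAT-Cre WT cells 85.8, 72.6 and 82.4% at 24 h, against 32.0, 26.0 and 38.7% at 0 h. No group overlapped, with differences of +64.5 ± 10.1 points (SE, limma adjusted p = 6.6e-05) in mb1-cre and +51.9 ± 10.1 (limma adjusted p = 0.000891) in TAT-Cre cells. The neighbouring domain, 45.0 kb from Pax2 with 3 long non-coding RNAs (chr19:44636387-44701589), differed by +43.5 ± 7.3 points in mb1-cre cells (limma adjusted p = 0.000131). With lists of an equal number of peaks it was at 0.

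At Zic1 and Zic4 (chr9:91348064-91410930) H2AK119Ub was listed at 0 in 11 of the 12 libraries at 0 h. It covered 15.5, 19.9 and 9.84% in Xist fl/fl mb1-cre cells and 28.8, 40.8 and 44.4% in WT mb1-cre cells at 24 h. In the TAT-Cre system it covered 41.7, 35.8 and 23.0% in Xist fl/fl cells at 24 h, against 0, 0 and 4.42% at 0 h, and 32.0, 40.1 and 24.9% in WT cells at 24 h, against 0% in all 3 at 0 h. The differences were +26.5 ± 5.6 points in mb1-cre (limma adjusted p = 0.00111) and +32.2 ± 5.6 in TAT-Cre cells (limma adjusted p = 0.000292). The domain had peaks in 1 library at 0 h and entered the fit through the 24 h libraries, so a difference was bound to appear. With lists of equal covered length the differences were +2.23 and +1.08 and not called.

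Tfap2a, a factor of neural crest and epidermis (chr13:40700380-40751480), rose by 49.9 ± 9.9 points in mb1-cre cells (SE, limma adjusted p = 0.000715), and Enpp4 and Enpp5, which encode membrane phosphodiesterases (chr17:44073338-44129016), by 40.02 ± 8.1 points (limma adjusted p = 0.000806). In TAT-Cre cells the domain of Cryba2, Fev and Cdk5r2, a lens crystallin, a serotonergic factor and a neuronal kinase activator (chr1:74827074-74905744), rose by 41.9 ± 9.9 points (limma adjusted p = 0.00433). That of Mpp2, Ppy and Pyy, a scaffold protein and hormones of pancreas and gut (chr11:102059442-102113993), rose by 36.8 ± 10.0 points (limma adjusted p = 0.0113). The same domains were +33.6 and +36.8 in mb1-cre cells.

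The Hox clusters differed among themselves in H2AK119Ub. The Hoxc domain was 88.4, 97.5 and 84.8% covered in Xist fl/fl mb1-cre cells at 24 h, against 72.5, 76.9 and 52.2% at 0 h, and 93.5, 90.0 and 95.3% in WT cells at 24 h, against 66.2, 83.4 and 67.1% at 0 h, without overlap (+21.9 ± 5.8 points, limma adjusted p = 0.00686). The Hoxd domain had 81.9, 84.2 and 83.9% in Xist fl/fl mb1-cre cells at 24 h, against 64.8, 63.5 and 56.6% at 0 h (+23.2 ± 6.1 points over both genotypes, limma adjusted p = 0.00678). The Hoxa domain was 88.4 to 100% covered in all 24 libraries and was not called. On the log2 share of peak signal Hoxc and Hoxd were at -0.12 and -0.32 and not called, and Hoxa at -0.93 was called lower (limma adjusted p = 0.00549), so the direction at the Hox clusters rests on coverage.

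Of the 21 lower domains, 2 held a developmental regulator of the lists, where 26 of all domains (21.8%) did. The difference between these shares was not tested. Vmn2r27, a vomeronasal receptor gene (chr6:124195313-124247692), was 37.9, 31.5 and 0% covered by H2AK119Ub in Xist fl/fl mb1-cre cells at 24 h, against 100% in all 3 at 0 h, and 45.2, 32.6 and 25.1% in WT cells at 24 h, against 100, 97.6 and 100% at 0 h. The difference of -70.9 ± 8.5 points (SE, limma adjusted p = 4.75e-06) was the largest of all domains in mb1-cre cells, and it was -57.1 points in TAT-Cre cells. H3K27me3 over the same domain varied in the TAT-Cre system, at 37.2, 6.12 and 58.6% in Xist fl/fl cells at 24 h, against 81.2, 0 and 89.2% at 0 h.

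Sycp1 was 23.6, 29.6 and 0% covered in Xist fl/fl mb1-cre cells at 24 h, against 86.2, 98.0 and 100% at 0 h, and 42.7, 44.9 and 63.7% in WT cells at 24 h, against 91.5, 96.4 and 99.9% at 0 h (-61.3 ± 9.2 points, limma adjusted p = 4.62e-05). The stretch between Osmr and Lifr had 37.6, 37.0 and 40.1% in Xist fl/fl mb1-cre cells at 24 h, against 91.9, 94.4 and 78.9% at 0 h (-43.1 ± 7.4 points over both genotypes, limma adjusted p = 0.000168). Mos, an oocyte kinase (chr4:3844960-3899050), differed by -45.3 ± 8.3 points (limma adjusted p = 0.00032). The groups of all 3 were apart in mb1-cre cells. The Chil3 domain differed by -34.9 ± 9.5 points (limma adjusted p = 0.00807).

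A stretch beside Rgs1, a regulator of G protein signalling in lymphocytes, was lower for H2AK119Ub at 24 h in both systems, lower for H3K27me3 in TAT-Cre cells, and had H3K27ac peaks in all 6 mb1-cre libraries at 24 h. It has no coding gene and lies 45.4 kb from Rgs1 and 153.9 kb from Rgs21 (chr1:144294463-144365812). H2AK119Ub covered 32.7, 49.0 and 36.9% of it in Xist fl/fl mb1-cre cells at 24 h, against 98.9, 100 and 100% at 0 h, and 82.1, 62.1 and 67.2% in WT mb1-cre cells at 24 h, against 100% in all 3 at 0 h. In TAT-Cre Xist fl/fl cells it covered 47.2, 34.5 and 63.8% at 24 h, against 100, 97.4 and 100% at 0 h, and in TAT-Cre WT cells 52.0, 42.7 and 63.3% at 24 h, against 100, 98.7 and 100% at 0 h. All 4 pairs of groups were apart, with -44.8 ± 6.1 points in mb1-cre (SE, limma adjusted p = 1.37e-05) and -48.7 ± 6.1 in TAT-Cre cells (limma adjusted p = 1.91e-05).

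H3K27me3 over this stretch was 21.1, 26.2 and 36.5% in TAT-Cre Xist fl/fl cells at 24 h, against 89.6, 30.6 and 99.1% at 0 h, and 52.3, 11.9 and 57.3% in TAT-Cre WT cells at 24 h, against 87.7, 99.0 and 74.5% at 0 h (-45.9 points, limma adjusted p = 0.0287). In mb1-cre Xist fl/fl cells it was 86.6% ± 8.8 at 24 h (SD, n = 4) and 92.7% ± 7.8 at 0 h (SD, n = 5), which an exact two-sided permutation test did not separate (p = 0.294, where the smallest possible is 0.00794). H3K27ac covered 3.77, 8.67 and 13.3% of it in mb1-cre Xist fl/fl cells and 10.7, 9.03 and 5.48% in WT cells at 24 h, and was listed at 0 in all 12 libraries at 0 h. In TAT-Cre cells at 24 h it had a peak in replicate 3 of Xist fl/fl (6.72%) and replicate 3 of WT (7.43%).

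**Figure D4:**
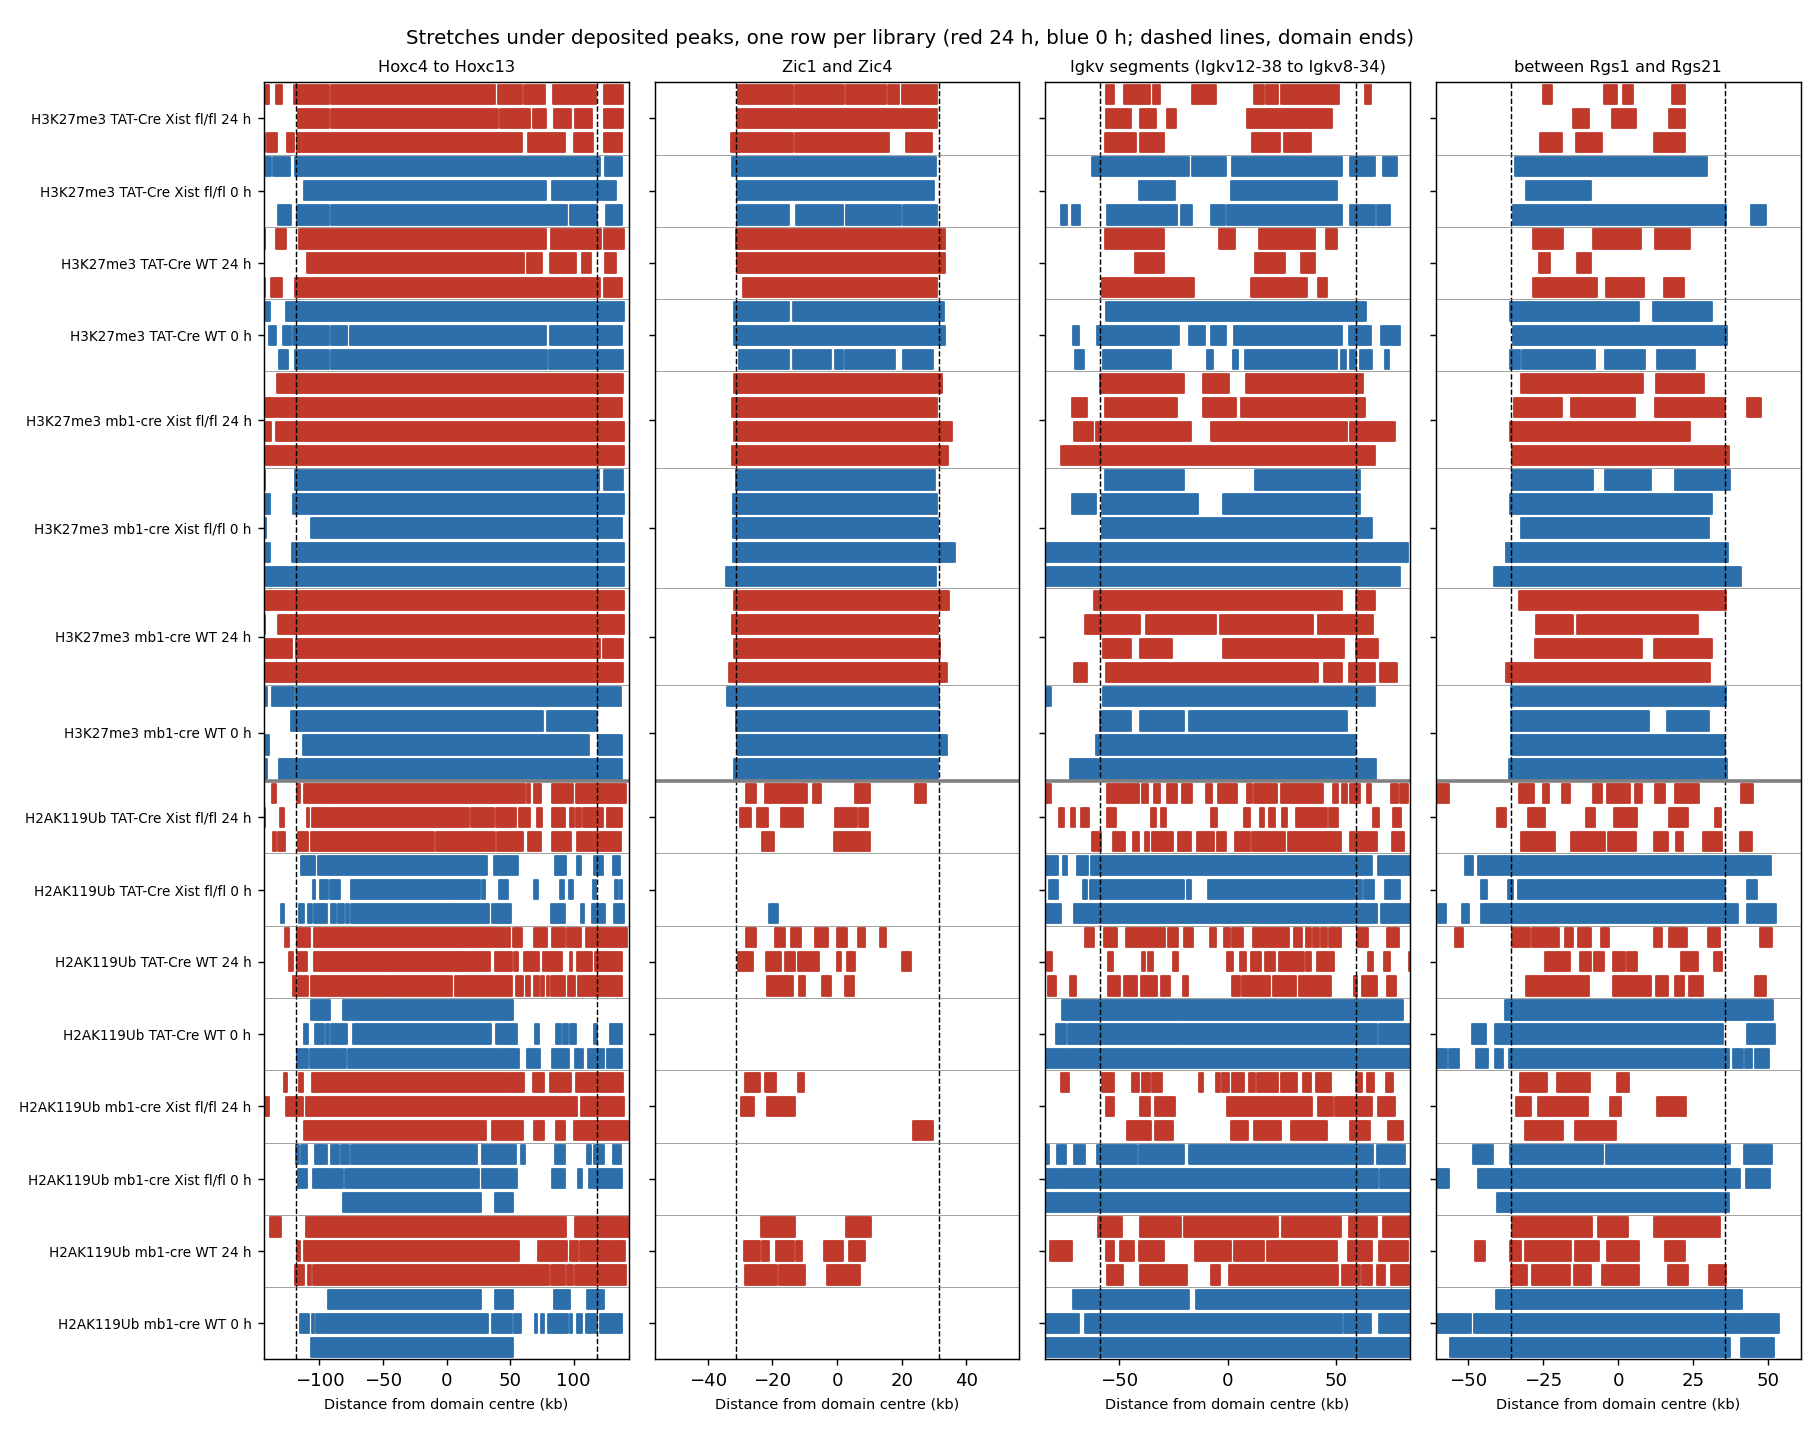
Stretches under H3K27me3 peaks (upper rows) and H2AK119Ub peaks (lower rows) in 4 domains, 1 row per library, red at 24 h and blue at 0 h; x axis, distance from the domain centre in kb, with dashed lines at the domain ends. H2AK119Ub fills more of the Hoxc and the Zic1 and Zic4 domains at 24 h and less of the kappa domain and the stretch between Rgs1 and Rgs21.

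The 3 kappa domains were all lower for H2AK119Ub at 24 h in both systems. In B cells a variable segment of the kappa locus is joined to make the light chain gene. Which segments the cells had joined is not known from these lists. The domain of 118.0 kb was 52.2, 61.1 and 49.5% covered by H2AK119Ub in Xist fl/fl mb1-cre cells at 24 h, against 96.5, 100 and 100% at 0 h, and 87.4, 74.6 and 75.7% in WT cells at 24 h, against 97.5, 99.4 and 100% at 0 h. In TAT-Cre Xist fl/fl cells it was 67.6, 33.2 and 74.3% covered at 24 h, against 100, 92.0 and 99.7% at 0 h, and in WT cells 65.4, 39.1 and 56.4% at 24 h, against 100, 99.6 and 100% at 0 h (-42.5 ± 6.3 points, limma adjusted p = 9.14e-05). The groups were apart throughout. The domain with Igkv8-27 and Igkv8-26 differed by -44.8 ± 6.7 points in TAT-Cre cells (limma adjusted p = 9.14e-05) and -33.6 in mb1-cre cells, and the one with Igkv15-103 (chr6:68431109-68485744) by -23.4 and -16.3 points. The segments of this locus are near copies of one another, so reads could be shared between them in alignment.

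Of the 16 domains that were lower for H3K27me3 in TAT-Cre cells, 9 were also lower for H2AK119Ub in mb1-cre cells and 6 in TAT-Cre cells, and 0 were higher in either. Over all domains 17.6% and 10.1% were lower for H2AK119Ub in these systems, and over all regions 8.65% and 6.09%. With lists of equal covered length 2 of the 16 kept their H3K27me3 call. The 6 were Dmrt1, Sycp1, the stretches between Osmr and Lifr and between Rgs1 and Rgs21, and the kappa domains with Igkv8-27 and with Igkv15-103. Rasgrf1, which had H3K27me3 at -26.6 points in TAT-Cre cells (limma adjusted p = 0.0499), had H2AK119Ub at -21.9 points in mb1-cre cells (adjusted p = 0.0428) and -21.6 in TAT-Cre cells (limma adjusted p = 0.0602).

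The direction of H2AK119Ub was set beside the gene content of the domains. The 26 domains with a developmental gene had 8 higher and 2 lower in mb1-cre cells (median +8.15 points) and 5 and 0 in TAT-Cre cells (+6.17). The 2 lower ones were Hey1, a Notch target, and Foxi3. The 42 other domains with a coding start of 15 CG or more had 12 and 4 (+9.16), and 8 and 2 (+7.81). The 16 domains whose coding starts had fewer CG had 1 and 5 (-13.7), and 0 and 1 (-7.41). The 35 with neither a developmental gene nor a promoter entry of a coding gene had 5 and 10 (-6.15), and 3 and 9 (-6.05). Coding genes without a promoter entry were not counted as starts. The 35 therefore mix stretches without coding genes with domains that hold one, such as Sim2 and Nptx1. Over all domains the medians were +4.28 and +2.77. These classes were set after seeing the data and were not tested. For H3K27me3 in TAT-Cre cells the medians of the 4 classes were -9.58, -11.7, -19.2 and -17.0 points, with 3, 4, 1 and 8 domains lower.

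**Figure D5:**
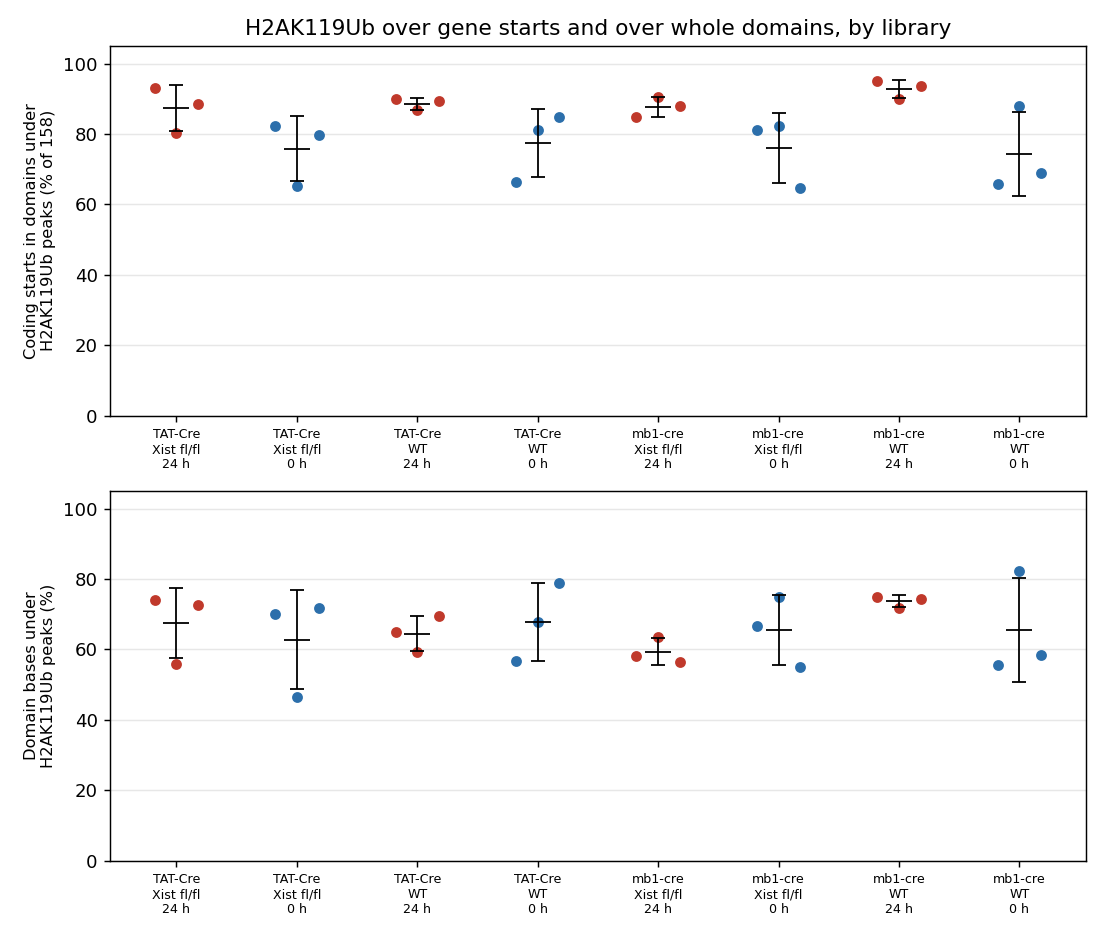
Percent of the 158 coding starts in domains under H2AK119Ub peaks (top) and percent of all domain bases under them (bottom), by library; points are libraries, red at 24 h and blue at 0 h, and black marks give mean and SD. Starts average 87.3 to 92.8% at 24 h and 74.3 to 77.4% at 0 h, while the bases of whole domains overlap between times in every group.

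At gene starts the mean H2AK119Ub was higher at 24 h in all 4 pairs of groups. Of the 158 coding starts, 87.8% ± 2.9 were under H2AK119Ub in Xist fl/fl mb1-cre cells at 24 h and 76.0% ± 9.9 at 0 h, and 92.8% ± 2.6 in WT mb1-cre cells at 24 h and 74.3% ± 11.98 at 0 h (SD, n = 3 each). In TAT-Cre cells the values were 87.3% ± 6.4 at 24 h and 75.7% ± 9.2 at 0 h for Xist fl/fl, and 88.6% ± 1.7 at 24 h and 77.4% ± 9.7 at 0 h for WT (SD, n = 3 each). The share of starts minus the share of domain bases sets both within one list. It was 28.4 points (26.6 to 31.6) at 24 h against 10.4 (7.29 to 14.4) at 0 h in mb1-cre Xist fl/fl cells, and 19.1 (18.1 to 20.0) against 8.78 (5.61 to 10.48) in mb1-cre WT cells. In TAT-Cre WT cells it was 24.1 (19.9 to 27.4) at 24 h against 9.68 (6.03 to 13.2) at 0 h, and in TAT-Cre Xist fl/fl cells 19.9 (16.1 to 24.4) against 12.97 (8.11 to 18.6). Times were apart in the first 3 groups and overlapped in the last. Starts outside domains had more H2AK119Ub at 24 h too, at 80.8% against 48.4% in shorter regions and 31.1% against 12.1% elsewhere in mb1-cre WT cells.

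H3K27ac was nearly absent, at 0 to 0.424% of domain bases per library. Of the domains, 15 were touched by an H3K27ac peak in any of the 24 lists and 5 in at least 3. Those 5 entered the limma fit over 131 regions. For CpG in mb1-cre cells 3 were higher and 1 lower, where 38.9% of the regions were higher and 3.05% lower. The 3 higher ones had no H3K27ac peak in any library at 0 h and entered the fit only through 24 h libraries, so their direction was fixed and their values are a description. With lists of equal covered length 0 of the 4 calls held, and with an equal number of peaks no domain could be tested. They were the stretch between Rgs1 and Rgs21 and 2 kappa domains. The kappa domain of 118.0 kb had 2.70, 5.70 and 5.93% in Xist fl/fl and 2.92, 5.82 and 2.52% in WT cells at 24 h and 0 in all 0 h lists. The kappa domain with Igkv15-103 had 8.49 and 9.72% in 2 of 3 Xist fl/fl and 8.22 and 13.6% in 2 of 3 WT libraries at 24 h.

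The Chil3 domain went the other way. H3K27ac was listed at 0 there in all 6 mb1-cre libraries at 24 h. At 0 h it covered 2.93 and 3.40% in 2 of 3 Xist fl/fl and 3.98, 3.07 and 2.74% in WT libraries (-2.69 ± 0.75 points, SE). The domain had a peak in 10 libraries of both systems, and only 1 of them, TAT-Cre WT, was at 24 h. It thus entered the fit almost only through 0 h libraries, and its difference is a description too. Chil3 is a macrophage gene, and among 8 myeloid genes at most 1 had an H3K27ac peak in any library. The part of other cells in this result was not tested. For TAT-Cre and CpG limma called 0 of the 5 domains, with 0 at an unadjusted p under 0.05, where 4.58% of regions were higher and 0% lower.

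Between Xist fl/fl and WT cells no domain passed the threshold in any mark. For H3K27me3 at 24 h, Xist fl/fl minus WT over both systems, limma called 0 domains, where 0% of regions were higher and 0.0494% lower. At an unadjusted p under 0.05, 2 domains passed. The median was -1.08 points against -0.15 over all regions. In TAT-Cre cells at 0 h, before any Cre, 0 domains were called by limma and 0 passed at an unadjusted p under 0.05, where 0% of regions were higher and 0% lower, with a median of -7.43 points against -7.80. Without Xist fl/fl replicate 2, whose list covered 28.8 Mb, that median was +1.84 points, against +4.79 over all regions.

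For H2AK119Ub at 24 h limma called 0 domains, where 0% of regions were higher and 0.0254% lower, and 3 domains passed at an unadjusted p under 0.05. The median was -5.08 points against -4.61 over all regions. In mb1-cre cells at 24 h the domains as a whole stood apart between genotypes, at 58.2, 63.6 and 56.4% in Xist fl/fl and 74.96, 71.8 and 74.4% in WT cells, and so did the whole lists, at 82.4 to 105.7 Mb in Xist fl/fl and 138.8 to 164.9 Mb in WT cells. Among single domains the stretch between Rgs1 and Rgs21 had 39.5% ± 8.5 in Xist fl/fl and 70.4% ± 10.4 in WT cells, the stretch of 106.8 kb on chromosome 7 had 25.04% ± 7.4 and 57.3% ± 9.1, and Sycp1 17.7% ± 15.7 and 50.4% ± 11.6 (SD, n = 3 each). Each gave p = 0.1 by an exact two-sided permutation test, the smallest that 3 against 3 allows. For H3K27ac 0 of 5 domains were called by limma for genotype and 0 passed at an unadjusted p under 0.05, where 0.763% of regions were higher and 0% lower.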

How the data were processed

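H3K27me3, H2AK119Ub and H3K27ac were profiled by CUT&RUN in 77 libraries. Per the submitters' processing notes, reads were handled with Trimmomatic 0.32, Bowtie2 2.3.4.1 on mm10, Picard and deepTools 3.5.1. The deposited lists, whose names carry the SEACR terms norm and relaxed, give for each of 883735 peaks its position, its total and its highest signal. Both deposited value columns hold signal (summed and highest coverage). The sources used here do not name the caller version, the control or any use of the yeast spike-in of the labels.

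The deposited signal was used only to trim lists and for the log2 share. Coverage of each region by peaks (percent of bases, percentage points for differences) was computed with Python 3.11.15, numpy 2.4.6 and pandas 2.3.3. It was tested by limma 3.58.1 in R 4.3.3 (group means, eBayes with trend) over regions of 5 kb or more covered in at least 3 libraries, with Benjamini-Hochberg adjustment and a threshold of 0.05. The H3K27me3 fits left out the 4 libraries that chose the 119 domains. Exact permutation tests (scipy 1.17.1) were used for single domains. The fit was tested on simulated data. A longer list gives more coverage, whatever made it longer.

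The members and the gene lists were chosen with earlier results of these data known. The domains named are the 12 longest, the 3 regions on either side of 50 kb, up to 5 called per direction and comparison by adjusted p, the 5 with the lowest and highest H3K27me3 coverage and with the most stretches at 24 h in WT cells of the mb1-cre system, and examples from each list. Other domains named, such as the Hox domains in the H2AK119Ub results, were chosen after their values were seen. Genes came from RefSeq for GRCm38.p6. Alternatives were lists trimmed to equal number of peaks or covered length, the log2 of the share of peak signal per list (pseudocount 1), no minimum length, a replicate block, no trend, each library left out, and other rules for the domains.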

Additional observations from a re-analysis of the deposited data

Results flagged for a closer look

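Within groups of 4 or 5 H3K27me3 libraries, 24 checks for a value far from the others gave 3, where chance gives about 1 in 20. In mb1-cre WT cells at 0 h, replicate 4 had 306 own stretches of 50 kb or more, against 107 to 138 in the other 3. The same library had 1.02 stretches per domain, against 1.202 to 1.21 in the others. It is one of the lists that chose the domains, and without it there are 57 domains. Replicate 5 of the mb1-cre Xist fl/fl group at 0 h had 898 own stretches of 50 kb or more, against 75 to 289 in the other 4, and is the library whose treatment entry and title disagree. The part of list length in these values was not tested.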

How the results depend on the processing

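Counts of called domains depended on how lists were made comparable. For H3K27me3 in mb1-cre Xist fl/fl cells, where 0 were called, lists of equal covered length called 3 and the log2 share of signal 2. For TAT-Cre and CpG, with 16, these gave 4 and 2, and leaving out a library gave 2 to 74. For genotype at 24 h leaving out a library gave 0 to 1. The difference between systems in Xist fl/fl cells gave 1 with lists of an equal number of peaks and 0 to 8 without a library. For H2AK119Ub, 47 called in mb1-cre cells became 78 with the log2 share and 36 to 52 without a library. The 28 in TAT-Cre cells became 49 and 49 with lists of equal number and length, 64 with the log2 share and 19 to 30 without a library. The 4 for H3K27ac became 0 with lists of equal length and 3 to 4 without a library. The cause was not tested. The log2 share weighs signal height, so Dmrt1 at +0.0118 and Nkx2-5 at +0.10 turned for H3K27me3 there. Of 29 named domain results, 15 kept direction and call under every alternative run.

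The number of domains was 56 with all 4 lists, 186 with 2, 33 at 75 kb, 231 at 40 kb and 57 to 83 without a list. With lists of equal length, coverage at 24 h minus 0 h was -7.56 and stretches -0.067 in mb1-cre WT cells and coverage -3.05 in mb1-cre Xist fl/fl cells, all turned, and -7.69 in TAT-Cre WT cells.

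With the replicate number as a block, 10 domains were lower for H3K27me3 in TAT-Cre cells in place of 16. Same-numbered H3K27me3 libraries correlated at -0.32 to 0.37, those of H2AK119Ub at -0.46 to 0.54 and those of H3K27ac at -0.49 to 0.35, with no pair of groups over 0.1 throughout, so the numbers were not taken as pairing. H3K27ac with lists of an equal number of peaks left no domain to test.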
